A study of Drosophila melanogaster with 3 samples.

Results

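The genes of 10 enzymes that carry glucose phosphate to pyruvate were examined for binding of the transcription factor Xbp1 in whole Drosophila melanogaster embryos. The 10 genes were Gapdh1, Gapdh2, Eno, Pgi, Pfk, Ald1, Tpi, Pgk, Pglym78 and Pyk, out of 13945 protein-coding genes on the chromosome arms. They were taken by name, and a peak was counted for a gene when its summit lay in the gene or within 2 kb of it. The authors' list thresholded for reproducibility between replicates held 7291 peaks, and 22 of them lay at these genes. It holds the strongest peaks of the pooled list by signal, so a peak on it need not be listed in every replicate.

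The study had a single group of 3 biological replicates. Embryos aged 0 to 24 h, of both sexes pooled, came from a transgenic line that stably expresses Xbp1 with GFP at its C-terminus, and the protein was precipitated with its DNA by an antibody against GFP. All embryos carried this fusion, and no other genotype, treatment or narrower age was compared. Whole embryos hold many cell types, so strong binding in few cells and weak binding in many cannot be told apart. Read totals were not analysed here and the depth is unknown.

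Glycolysis splits glucose into a pair of triose phosphates and oxidises them to pyruvate, yielding ATP and NADH. In Drosophila embryos most enzymes of the pathway rise together in the middle of embryogenesis, a switch that depends on the nuclear receptor ERR. Xbp1 is a bZIP protein best known for raising genes of folding and secretion when unfolded proteins build up in the endoplasmic reticulum (ER).

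The sequences under 3 summits and around a single motif are shown because the results turn on them: Gapdh2 and Eno held the strongest peaks of the 10 genes, Tpi held a peak of middling strength, and Ald1 alone held the unfolded protein response (UPR) element. Each is from the Release 6 (dm6) genome and reads 5′ to 3′ on the strand of the gene. In the windows of Gapdh2 (chrX:15867942-15868042, plus strand), Eno (chr2L:1727881-1727978, minus strand) and Tpi (chr3R:30134779-30134855, minus strand) the capital is the summit base. In that of Ald1 (chr3R:26259113-26259142, minus strand, in the 5′ UTR) the capitals are the element TGACGTGG, which reads as its reverse complement on this strand.
Gapdh2: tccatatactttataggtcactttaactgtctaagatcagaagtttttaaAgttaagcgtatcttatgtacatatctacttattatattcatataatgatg
Eno: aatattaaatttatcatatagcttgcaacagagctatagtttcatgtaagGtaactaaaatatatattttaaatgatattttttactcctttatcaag
Tpi: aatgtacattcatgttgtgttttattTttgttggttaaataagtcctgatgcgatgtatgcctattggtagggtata
Ald1: agtgaaagttaCCACGTCAcgcattatgcg
The windows of Gapdh2 and Eno are rich in A and T. Over the full 101 bp around the summit their GC content was 25.7% and 20.8%, against a median of 33.7% (quartiles 28.7% and 40.6%) over all thresholded peaks. The strongest peaks of 6 of the other 7 genes lay above the upper quartile: Ald1 at 56.4%, Pgk and Pglym78 both at 52.5%, Pgi at 47.5%, Pfk at 45.5% and Pyk at 44.6%. Tpi, at 31.7%, lay between the quartiles.

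Of the 10 genes, 9 had a thresholded peak in the gene or within 2 kb (90%, exact Clopper-Pearson 95% interval 55.5% to 99.7%), and Gapdh1 had none. Across all protein-coding genes 48.2% had such a peak. A summit lay within 500 bp of an annotated start site in 8 of the 10 genes (80%, interval 44.4% to 97.5%), all but Gapdh1 and Pfk, against 30.4% of all genes. The same 8 genes had a peak whose nearest start site of any protein-coding gene was their own, against 29.0% of all genes. A peak of signal 1000 or more at a start site occurred in 2 of the 10, Gapdh2 and Eno, against 4.04% of all genes. The members were a chosen list, chosen with earlier results of these data known, so no test over the list was made. The intervals cover counting error only. They treat the genes as random draws, which they are not, and are not a test against the shares of all genes.

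The count was the same in each replicate. In equally long lists of the strongest peaks of replicates 1, 2 and 3, 9 of the 10 genes had a peak within 2 kb each time, with Gapdh1 missing each time. The shares of all genes in these lists were 47.7%, 49.3% and 46.6%. Of the 22 peaks, 21 were found in all 3 replicate lists, as were 6966 of all 7291 thresholded peaks. The exception was a peak of signal 193 downstream of Gapdh2, inside the neighbouring gene CG16952, found in replicate 2 alone. The replicate lists include background entries. In replicate 3 the Eno peaks of signal 223 and 197 matched entries with q-values of 0.591 and 0.146.

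Signal is the authors' value for each peak, on a scale that is not stated, and it was read within a list only. The strongest peaks of the 9 genes had a median signal of 354, against 319 for all thresholded peaks and a lowest value of 172. This median was near that of the whole list, because most of the 9 genes lay near its middle. Gapdh2, Eno and Pgk stood at ranks 124, 248 and 617 of 7291, and the rest between ranks 2718 and 4382. To compare replicates, peaks were ranked among the 6966 thresholded peaks that each of the 3 replicates also listed, with low percentages for strong peaks, and signal was divided by the median of these shared peaks in the same replicate (relative signal). The median position of the 9 genes was the top 51.3% in replicate 1, 32.8% in replicate 2 and 44.9% in replicate 3 (mean 43.0% ± 9.41, SD, n = 3).

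**Figure D1:**
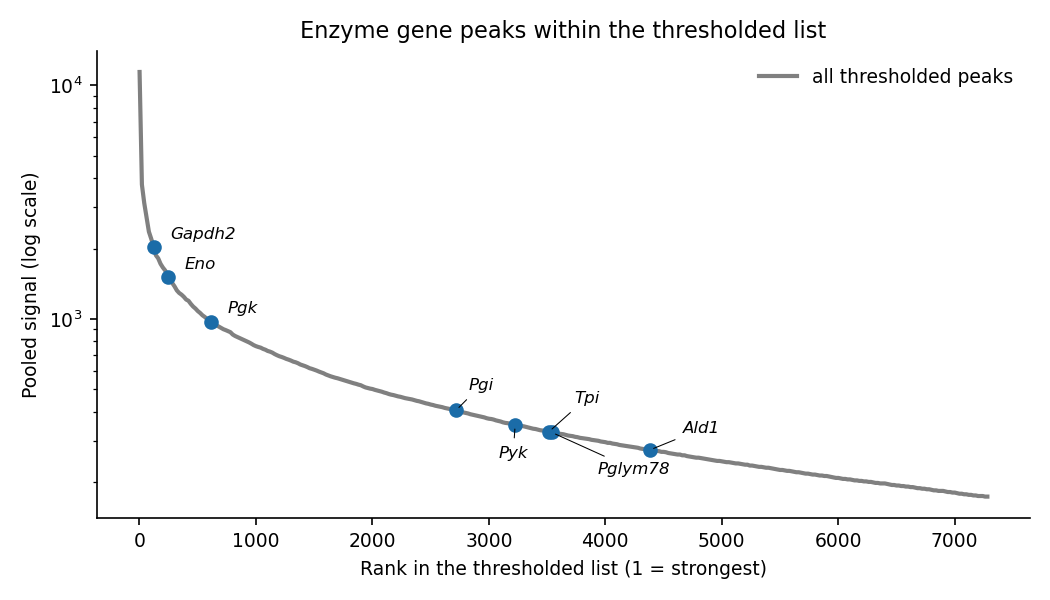
Pooled signal (log scale) against rank in the thresholded list, for all peaks (grey line) and for the strongest peak at a start site of each of 8 enzyme genes (blue points). Gapdh2, Eno and Pgk, at ranks 124, 248 and 617, lie on the steep part of the curve, and the other 5 lie between ranks 2718 and 4382.

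The first steps of the pathway rearrange and split the hexose. Pgi encodes glucose-6-phosphate isomerase (FBgn0003074, chr2R:8910900-8914069, minus strand), and its only peak had its summit at position 8914104, 35 bp upstream of its outer start site and outside any gene. Its pooled signal was 405, at rank 2718 of 7291. The replicate signals were 179, 121 and 113, or 1.20, 1.03 and 1.41 times the median of the shared peaks (1.21 ± 0.186, SD, n = 3). All 3 replicates thus placed Pgi just above the middle of the list. The divergent gene lin starts 420 bp from the summit.

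Pfk encodes phosphofructokinase, the enzyme of the committed step (FBgn0003071, chr2R:10109740-10117457, plus strand). Its only thresholded peak lay past the far end of the gene, 6756 bp downstream of its inner start and 68 bp upstream of the start of the next gene, dmpd. That peak had a signal of 335 at rank 3423, and replicate signals of 146, 97.3 and 81.4 (relative signal 0.940 ± 0.0956, SD, n = 3). Near its own starts Pfk had only a pooled entry below the threshold, 920 bp upstream, with a signal of 115, a q-value of 0.0201 and rank 10822 of 27099. In the replicates this entry had a signal of 32.7 (q-value 0.709) in replicate 1 and 48.4 (q-value 0.00015) in replicate 2, and it was not listed in replicate 3. Pfk was thus reached by the 2 kb rule through a neighbour's promoter, and the entry by its own start passed a q-value of 0.05 in replicate 2 and not in replicate 1.

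Ald1 encodes fructose-bisphosphate aldolase (FBgn0000064, chr3R:26254069-26261591, minus strand) and has 5 annotated start sites. A single peak lay 69 bp downstream of an inner start, at position 26259144 in the 5′ UTR, with a signal of 274 at rank 4382. Replicate signals were 76.2, 138 and 43.9, or 0.512, 1.18 and 0.545 of the shared median (0.744 ± 0.375, SD, n = 3). Replicate 2 stood above the other two, at rank 2792 of the shared peaks against 6452 in replicate 1 and 5915 in replicate 3. The 2 outer starts had no thresholded peak. A pooled entry near them, with a signal of 80.8 and a q-value of 0.254, was overlapped by entries of replicate 2 only, the stronger of 48.5 (q-value 0.000151).

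Tpi encodes triosephosphate isomerase, which interconverts the 2 trioses (FBgn0086355, chr3R:30132981-30134599, minus strand). Its peak had the summit at position 30134829, 230 bp upstream of the outer start and between genes, with a signal of 328 at rank 3516. The replicate signals were 129, 93.7 and 88.5 (relative signal 0.922 ± 0.156, SD, n = 3). The replicates therefore placed it near the middle of the list.

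The later steps oxidise the trioses and yield ATP. Gapdh1 and Gapdh2 both encode glyceraldehyde-3-phosphate dehydrogenase, and they stood at opposite ends of the 10 genes. Gapdh2 (FBgn0001092, chrX:15868145-15869661, plus strand) had the strongest peak, chrX:15867793-15868172, with the summit at position 15867992, 153 bp upstream of its outer start and between genes. The signal was 2032 at rank 124 of 7291. Replicate signals were 814, 816 and 406, at ranks 161, 80 and 207 of the 6966 shared peaks, and relative signals were 5.47, 6.97 and 5.04 (5.83 ± 1.01, SD, n = 3). Gapdh2 was in the top 2.97% or better in every replicate.

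Gapdh1 (FBgn0001091, chr2R:7791901-7793380, minus strand) had no thresholded peak and no entry in the pooled list of 27099 within 2 kb. Replicate 1 listed nothing there. Replicate 2 listed 3 weak entries, with signals of 28.6, 24.1 and 23.2 and q-values of 0.077, 0.181 and 0.212. Replicate 3 listed 1, 1346 bp upstream, with a signal of 23.3 and a q-value of 0.535. All 4 entries missed a q-value of 0.05, and the lists themselves ended at signals of 28.5, 16.6 and 17.7. The nearest thresholded summits lay 8881 bp beyond the 3′ end of the gene, near CG46385, and 18988 bp upstream, near puml. Of all protein-coding genes, 26.5% were as far or farther from a thresholded summit.

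Within replicate 2 the strongest Gapdh2 entry was 28.5 times that of Gapdh1, and within replicate 3 it was 17.4 times. Replicate 1 gave no ratio, since Gapdh1 had no entry. The Gapdh1 entries behind these ratios missed a q-value of 0.05 and lay at different places, 502 bp downstream and 1346 bp upstream of a start, so they are not measures of binding at Gapdh1 and the size of the ratio is not exact. The mean log2 ratio was 4.48 ± 0.50 (SD, n = 2), higher for Gapdh2 in 2 of 2 replicates. The exact two-sided sign-flip permutation test gave p = 0.5, which is the smallest value that 2 replicates allow. The 2 genes differ in sequence: of 5445 words of 36 bases in Gapdh1 and the 2 kb around it, 3 (0.0551%) also occurred in the same region of Gapdh2, and the longest shared stretch was 38 bases. How the authors' alignment treated reads that match both was not given in the sources used here.

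Pgk encodes phosphoglycerate kinase, which makes the first ATP of the pathway (FBgn0250906, chr2L:2746880-2753068, minus strand), and had 7 thresholded peaks. Only 0.782% of protein-coding genes had 7 or more. The strongest, at position 2748743 in a 5′ UTR, lay 256 bp upstream of the innermost of 5 start sites, with a signal of 973 at rank 617. Replicate signals were 434, 298 and 241 (relative signal 2.82 ± 0.239, SD, n = 3), between the top 9.39% and 10.8% in the 3 replicates. A second own peak, in an intron 286 bp upstream of another start, had a signal of 517 and replicate signals of 187, 196 and 133. Another own peak, 42 bp downstream of the outermost start, had a signal of 240.

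The remaining 4 peaks at Pgk, with signals of 507, 399, 480 and 184, were nearest to a start of Bacc, a gene on the opposite strand that overlaps Pgk at its 5′ end. The summits of 507 and 399 lay in Pgk alone, and those of 480 and 184 in Bacc alone. The own peak of signal 240 lay where both genes overlap, 207 bp from a start of Bacc. Peaks have no strand, so that peak cannot be assigned to either gene. The peaks of signal 507 and 399 matched the same entry in replicates 1 and 3. Those of 480 and 184 matched the same entry in all 3. The matched replicate values of these pairs are thus not independent. A peak took the strongest overlapping entry, and weaker replicate entries lay nearer the lesser summits. In replicates 1, 2 and 3 these had signals of 130, 46.5 and 47.6 near the peak of 184. Near the peak of 399 they had 42.8 (q-value 0.24) in replicate 1 and 113 in replicate 3. Own start sites had a peak within 500 bp at 3 of the 5.

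Pglym78 encodes phosphoglycerate mutase (FBgn0014869, chr3R:29148248-29149901, plus strand). A single peak at position 29148280 lay 32 bp downstream of its outermost start, in the 5′ UTR, with a signal of 326 at rank 3540. Replicate signals were 115, 157 and 59.7, at ranks 4623, 2284 and 4722 of the shared peaks (relative signal 0.950 ± 0.338, SD, n = 3). As for Ald1, replicate 2 stood above the other two. The start of the divergent gene CG11882 was 108 bp from the summit.

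Eno encodes enolase (FBgn0000579, chr2L:1724768-1729636, minus strand) and had the second strongest peak of the 10 genes, chr2L:1727717-1728134. The summit, at position 1727928, lay in an intron, 211 bp upstream of the innermost of 3 start sites and 535 bp downstream of the middle one. The signal was 1505 at rank 248. Replicate signals were 666, 491 and 344, or 4.47, 4.19 and 4.27 times the shared median (4.31 ± 0.147, SD, n = 3). Eno had the smallest SD for its size among the strong peaks, and its summit fell on the same base in the pooled list and in all 3 replicate lists. The outermost start had a weaker peak 27 bp upstream, in the 3′ UTR of Rrp40, with a signal of 294 and replicate signals of 114, 107 and 70.2. A further 2 peaks, of 223 and 197, lay beyond the 3′ end of Eno and nearest to Rim2.

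Pyk encodes pyruvate kinase, the last enzyme of the pathway (FBgn0267385, chr3R:22367536-22372746, plus strand), and had 4 peaks. The highest, of 354, lay 3 bp from the start of the neighbour CG5382 and 1556 bp upstream of Pyk. Its replicate signals were 86.2, 224 and 39.8, or 0.579, 1.91 and 0.494 of the shared median, so replicate 2 was again apart. A pair of intronic peaks, 417 and 206 bp upstream of the inner start of Pyk, had signals of 351 and 300. Both matched the same replicate entries, of 159, 110 and 76.6 (relative signal 0.987 ± 0.0734, SD, n = 3), with no replicate apart. Replicates 1 and 2 also listed a weaker entry nearer the summit of 300, with signals of 121 and 80.2. The fourth peak, of 240, lay 182 bp upstream of the outer start of Pyk and 19 bp downstream of the start of the divergent gene Polr3F.

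**Figure D2:**
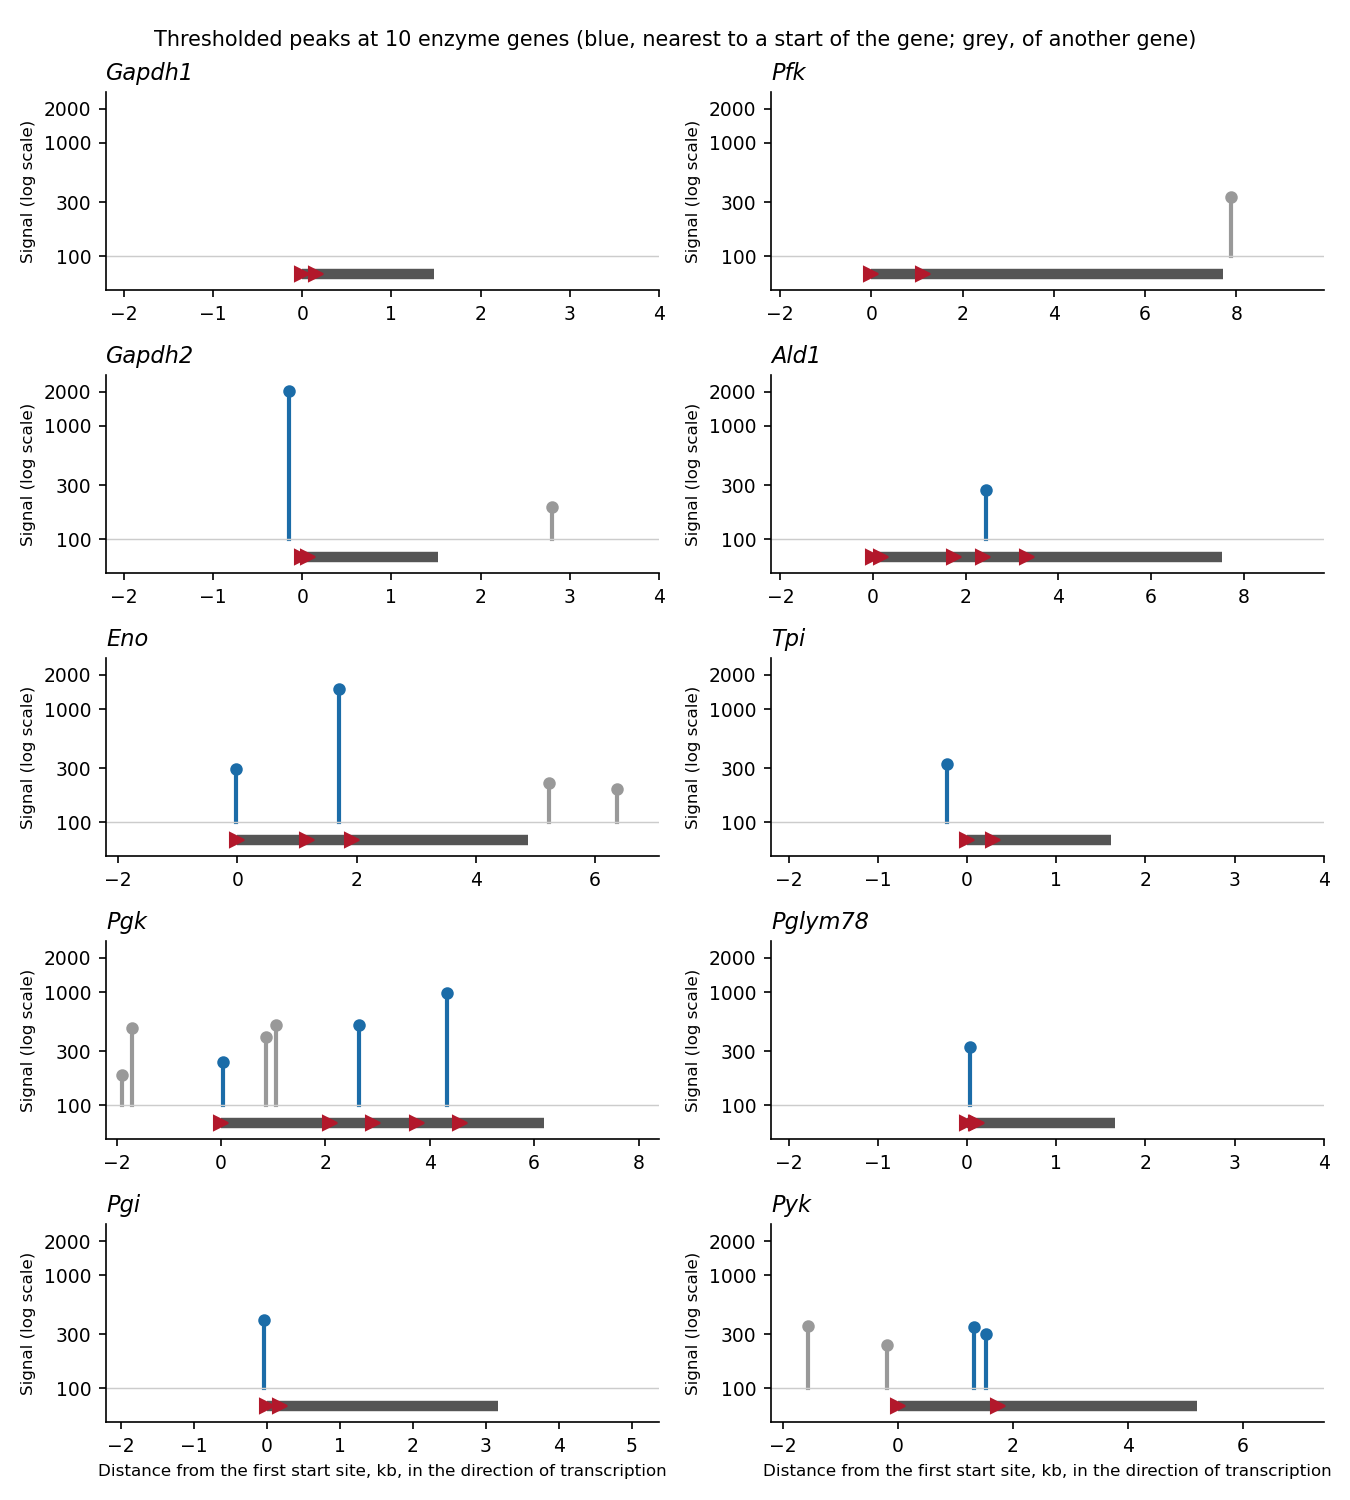
Thresholded peaks at each of the 10 genes by distance in kb from the outermost start site, in the direction of transcription, with pooled signal on a log scale as height. Grey bars are the genes, red arrowheads their start sites, blue lines peaks nearest to a start of the gene and grey lines peaks nearest to a start of another gene. Gapdh1 has no line, Pfk only a grey one past its far end, and Pgk has 3 blue and 4 grey lines.

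Ordered by mean position among the shared peaks, Gapdh2 led at the top 2.14% ± 0.923 (SD, n = 3 for each gene), followed by Eno at 3.99% ± 0.657, Pgk at 9.95% ± 0.743 and Pgi at 40.2% ± 7.66. Gapdh2, Eno and Pgk each stood above the next in 3 of 3 replicates, with ranges that did not overlap. From Pgi on the order was not resolved, and in replicate 2 Pgi, at 47.8%, stood below Pglym78 at 32.8% and Ald1 at 40.1%. Taking each gene's strongest peak nearest to its own start, Pyk at 51.4% ± 4.32, Pglym78 at 55.6% ± 19.8, Tpi at 56.2% ± 10.3 and Ald1 at 72.5% ± 28.4 overlapped their neighbours in range, and Pyk overlapped Pgi. Pfk, whose peak lay at dmpd, stood at 54.4% ± 6.97, and the CG5382 peak near Pyk at 64.4% ± 40.2.

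**Figure D3:**
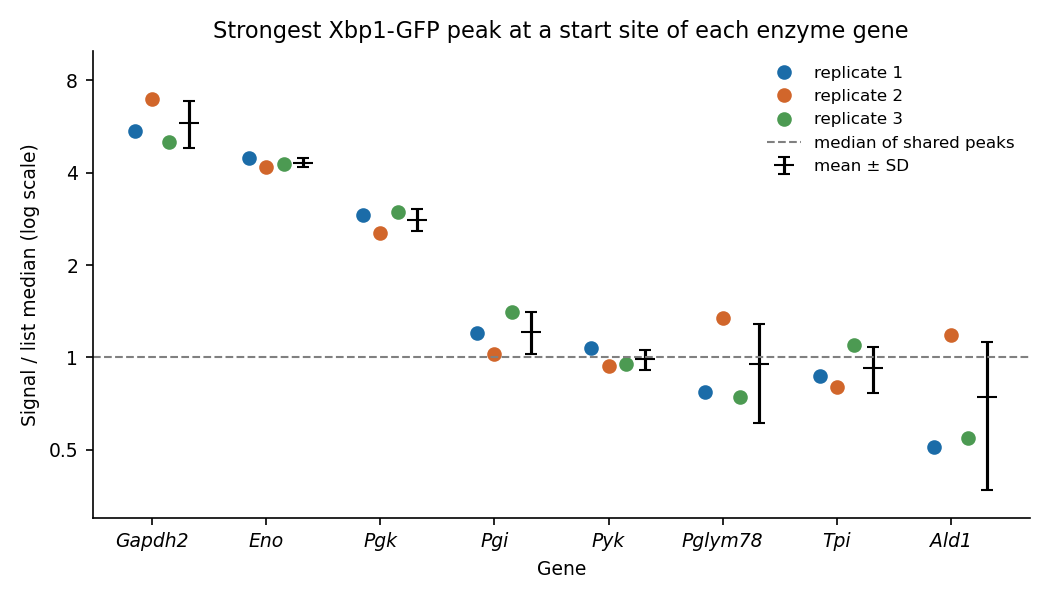
Relative signal, the signal over the median of the 6966 shared peaks in the same replicate, on a log scale, for the strongest peak nearest to a start of each of 8 genes. Points are replicates, bars are mean ± SD (n = 3) and the dashed line is the median of shared peaks. Gapdh2, Eno and Pgk lie above 2.5 in every replicate, and Ald1 and Pglym78 are above 1 in replicate 2 alone.

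None of the 22 peaks had its summit in a coding exon. Summits lay in an intron in 10, in a 5′ UTR in 6, between genes in 5 and in a 3′ UTR in 1. Of the 22, 12 were nearest to a start of the enzyme gene and 10 to a start of another protein-coding gene. The 10 enzyme genes have 28 annotated start sites, and 16 of these had a thresholded summit within 500 bp. The matching shares over all thresholded peaks and all start sites are not given here. These counts thus describe the enzyme genes only and do not set them apart from other genes. In 4 of the 8 genes with such a peak, Gapdh2, Eno, Tpi and Pgk, the strongest one lay 100 to 300 bp upstream of the nearest own start (50%). Over all 4242 protein-coding genes with a peak near a start the share was 40.2%, and over the 563 of these with a signal of 1000 or more it was 56.8%. In Pgi, Ald1 and Pglym78 (37.5%) it lay within 100 bp of the start, against 41.9% of all such genes. These ranges were chosen after the distances were seen.

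The 101 bp around each summit were searched on both strands for 9 short motifs. The UPR element TGACGTGG occurred in 40 of 7291 windows (0.549%) and, among the strongest peaks of the 9 genes, in Ald1 alone, within 20 bp of the summit. The element contains TGACGT, the bZIP core ACGT and, on the other strand, CCACG, so these matches overlap it. CCACG, a part of the ER stress element, occurred in 2 of the 9, Ald1 and the CG5382 peak near Pyk, against 6.27% of all windows. ACGT occurred in 3 of the 9, those 2 and Pglym78, against 17.8%, and TGACGT in Ald1 against 2.81%. Replicate 2 stood apart at these 3 strongest peaks, a pattern noticed after the values were seen. Over all 22 peaks ACGT occurred in 6, and the remaining 3 of them were a weaker peak of Eno and a pair of weaker peaks at Pgk. Replicate 2 did not stand apart at the Eno peak of signal 294, with relative signals in replicates 1, 2 and 3 of 0.767, 0.912 and 0.871. Nor did it at the Pgk peak of 480, with 1.38, 1.30 and 1.55. The Pgk peak of 399 had 1.68, 1.06 and 1.5, but replicates 1 and 3 there matched the entry of the neighbouring peak of 507. Their values are thus not those of this peak. Nearer its summit, replicates 1, 2 and 3 had entries of signal 42.8 (q-value 0.24), 124 and 113. CCACG occurred in 3 of the 22, Ald1, the CG5382 peak and the Pgk peak of 399. The strongest windows of Gapdh2, Eno, Pgk, Pgi, Pfk and Tpi held none of these 4 motifs. TATAAA occurred in Gapdh2 alone of the 9, and in 2 of the 22, against 19.8% of all windows. The E-box CACGTG (0.905% of windows), TCAAGGTCA bound by ERR (0.0274%), TATCGATA (2.70%) and GAGAG (9.49%) occurred in none of the 9, and of these 4 only GAGAG occurred among the 22, in 1 peak near Eno. A match is a run of letters, and its absence from a window says nothing about the factor.

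The related genes were counted beside the shares of all protein-coding genes. None of 9 paralogs of the enzymes had a thresholded summit within 500 bp of a start, against 30.4% of all genes. Of the 9, 2 had one within 2 kb, against 48.2%. The lists of related genes are small, and no test over them was made. The peak at CG12229, of signal 2700 and rank 62, lay 93 bp upstream of a start of CG32176, and that of CG7362, of 246, lay 817 bp upstream of its own. Ald2 and CG11249 were among the 7 with none. Pglym87 and Ald2 had an entry in replicate 3 only, with signals of 18.1 and 22.3 near the end of that list at 17.7. In the same replicate Pglym78 had 59.7 and Ald1 had 43.9, and no ratio or test is given.

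The hexokinases, which feed the pathway, had 1 of 4 with a peak at a start, against 30.4% of all genes. Hex-A had a signal of 981 at 177 bp upstream, with replicate signals of 475, 312 and 213. Hex-C was within 2 kb of the strongest peak in any of these lists, of signal 4611 and rank 15, but that peak lay 145 bp upstream of mRpL41. Hex-t1 and Hex-t2, the testis forms, had none.

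Enzymes around the pathway were counted in the same way, beside the same 30.4% of all genes with a peak at a start. Among 5 genes of flux control and gluconeogenesis, 4 had a peak at a start, including the pyruvate carboxylase gene PCB (signal 532) and the fructose bisphosphatase gene fbp (470), and Pepck1 had none within 2 kb. Among 10 genes that use pyruvate or triose phosphate, 6 had one, led by the lactate dehydrogenase gene Ldh, with a signal of 1238 at 192 bp upstream, rank 383 and replicate signals of 561, 410 and 262, and by Pdhb, a subunit of pyruvate dehydrogenase, with 794. Pdha, of another subunit of pyruvate dehydrogenase, had none within 2 kb. Neither had Gpdh2 and Gpdh3, of glycerol phosphate dehydrogenase.

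Among 10 genes of sugar supply and stores, 4 had a peak at a start, against 30.4% of all genes. The gene of glycogen phosphorylase, GlyP, led with 1393 at 153 bp upstream. A peak of 1285 within 2 kb of the trehalase gene Treh was nearest to CG10527, and Treh also had a peak of 407 at 194 bp upstream. AGBE, of glycogen branching, and the glucose transporter gene Glut1 had none within 2 kb. Of 6 genes of the pentose phosphate branch, 4 had a peak at a start, led by the transketolase gene CG8036 (1858 at 236 bp upstream). The strongest peak at Zw, of glucose-6-phosphate dehydrogenase, was intronic (1750 at 1123 bp upstream), and its peak at a start had 294. Rpi had none within 2 kb. Of 6 regulators of glycolytic genes, 4 had one. ERR had 1018, in a peak 24 bp from a start of Atg18a, and bigmax, the partner of the sugar sensor Mondo, had 1001 in a peak 113 bp from a start of Hmu. The gene tgo, which encodes the partner of the hypoxia factor Sima, had none.

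Over these 50 other genes, 30 had a thresholded peak within 2 kb and 23 had one within 500 bp of a start, beside the 48.2% and 30.4% of all protein-coding genes.

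**Figure D4:**
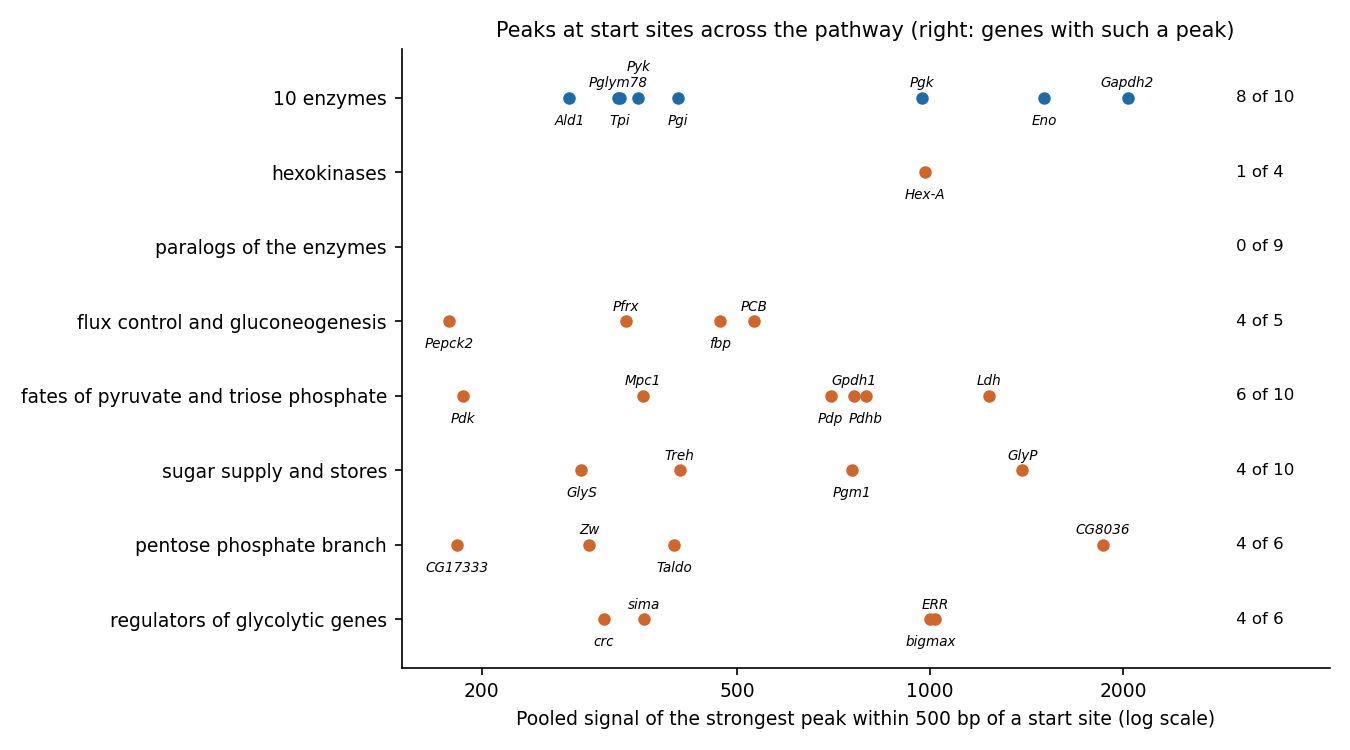
Pooled signal (log scale) of the strongest thresholded peak within 500 bp of a start site, for the 10 enzyme genes (blue) and 7 lists of related genes (orange), with the number of genes that have such a peak at the right. Gapdh2, CG8036, Eno, GlyP, Ldh, ERR and bigmax are at 1000 or more, and the paralogs have no point.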

How the data were processed

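Peak lists of 3 biological replicates were analysed, as 5 lists in dm6: one per replicate (21686, 30000 and 23357 entries), one pooled (27099) and one thresholded for reproducibility (7291, the strongest of the pooled list by signal). Each entry carries a signal and a −log10 q-value deposited by the authors. Neither the aligner nor the peak caller is given in the sources used here, and replicate and pooled lists include background entries, with 9930, 16056 and 8109 replicate entries at a q-value of 0.05 or less. The −log10 q-value was at its highest, 4.15, for 7111 thresholded peaks and does not rank them.

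Summits were placed against the Ensembl BDGP 6.54 annotation, release 115, with 56 of 60 gene symbols matched directly and 4 by synonym. The annotation names Pyk as PyK. A thresholded peak took the strongest overlapping entry (minimum 1 bp) of a replicate. The median signal of shared peaks was 149, 117 and 80.6. Scripts, run with Matplotlib 3.10.9, pandas 2.3.3, SciPy 1.17.1 and NumPy 2.4.6 under Python 3.11.15, were tested on simulated data, where 200 of 200 planted peaks within 2 kb were found and 0 of 200 beyond. The members and lists were chosen with earlier results of these data known. Named were the members, the 2 strongest genes of each other list, up to 2 without a peak, and the gene nearest to a member's strongest summit. Other neighbours, Pglym87 and Pdha were named after their values were seen.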

Additional observations from a re-analysis of the deposited data

How the results depend on the processing

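Of 38 alternatives, 36 kept the count within 1.5 times, the median within the spread, or the direction of a ratio. Some of the 36 could not have differed. Leaving out replicate 1 kept the log2 ratio of Gapdh2 to Gapdh1 at 4.48, since that replicate gave no ratio. The Gapdh1 entries are not measures of binding, so alternatives that reuse them do not test the direction of that ratio. Pglym87 had an entry in replicate 3 only, so leaving out replicate 1 or 2 could not change its comparison with Pglym78. Ranking by q-value in place of signal gave a median position of 41.9%. Most of the strongest peaks shared a single −log10 q-value in replicates 1, 2 and 3 (4.10, 4.27 and 3.98). Their ranks were thus tied, and this alternative does not test the median position. Counting a summit only inside the gene left 5 of 10 genes with a peak in place of 9, since the summits at Gapdh2, Pfk, Pgi and Tpi lie outside. A distance of 5 kb raised the median signal of the strongest peaks from 354 to 631, as peaks of neighbours entered. Keeping only thresholded peaks above the median signal lost Ald1 (8 genes within 2 kb, 7 at a start), and a distance of 200 bp from a start lost Tpi (7 genes). Counting only peaks nearest to an own start, an alternative chosen after seeing the data, gave 8. Leaving out each replicate gave 9 genes within 2 kb and 8 at a start throughout, a median position of 38.8% to 48.1%, and a log2 ratio of Gapdh2 to Gapdh1 of 4.12 to 4.83. Summed signals gave a log2 ratio of 3.99, and the strongest entries within 500 bp of a start gave 5.08 from 1 replicate, farther from 4.48 than its SD of 0.50. The pooled list gave none, as Gapdh1 had no entry there. Without replicate 3 there was no Pglym87 entry to set beside Pglym78. No paired analysis was possible because the series has a single group, so that no replicate could be paired across groups. The ratio of Gapdh2 to Gapdh1 was taken within each replicate. With 3 replicates in 1 group and no depth, small differences between the members ranked below Pgk were not resolved.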

Other observations

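Replicate 2 ranked the peaks of Ald1, Pglym78 and the CG5382 start near Pyk higher than the other replicates did. On the log2 scale of relative signal, replicate 2 exceeded the mean of replicates 1 and 3 by 1.16, 0.83 and 1.84 at these peaks, and by 0.41 at Gapdh2. The strongest peaks of the other 5 genes differed by -0.33 to -0.06. Over all 6966 shared peaks the median difference was -0.09. The 38 shared peaks with the UPR element TGACGTGG, of which the Ald1 peak is a member, had a median difference of 1.23, and the 6928 without it had -0.10. The 191 peaks with the shorter TGACGT had 0.40, and the 1237 with ACGT had -0.01, against -0.11 without ACGT.

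This difference was higher in the top GC quartile only. In the top GC quartile of shared windows the median was 0.15, or 0.44 in the 416 windows with ACGT and 0.09 in the 1218 without, while in the lower quartiles the medians for all windows were -0.18 to -0.11. The difference was chosen for a closer look after the member values were seen, it compares a single replicate with 2 others, and no test was made. The peaks of Ald1, Pglym78 and CG5382 had GC contents of 56.4%, 52.5% and 44.6%. Those of Pgk, Pgi and Pfk had 52.5%, 47.5% and 45.5%, with differences of -0.21, -0.33 and -0.26. All of these lay above the upper GC quartile of all thresholded peaks. The part of GC content in the difference at Ald1, Pglym78 and the CG5382 peak was not tested.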
